A study of Mus musculus with 15 samples.

Results

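Expression of 42 interferon-stimulated genes was followed in primary mouse articular chondrocytes after knockdown or inhibition of tankyrase. The genes were taken by name from a list of known interferon targets, by a rule that used no measured value. They were chosen, however, with earlier results of these data known. All 42 were found among the 24134 genes counted. They comprise 4 transcription factor and feedback genes, 3 nucleic acid sensors, 5 genes of the OAS family, 3 of the IFIT family, 9 antiviral effectors, 6 genes of ISG15, ubiquitin ligases and PARPs, 7 GTPases of the GBP and IRG families, and 5 others. Chondrocytes came from the femoral condyles and tibial plateaus of ICR mice aged 4 to 5 days, were kept at passage 0 in DMEM with serum, and formed 5 groups of 3 libraries. In the siRNA set, cells were transfected by means of METAFECTENE PRO with a control siRNA (siCtrl) or with siRNAs against both Tnks and Tnks2 (siTnks/2), for a time not given in the sources used here. In the inhibitor set, cells received the vehicle DMSO, or XAV939 or IWR-1 at 10 µM, for 108 h. Both compounds are tankyrase inhibitors built on different scaffolds, so the design sets a genetic and a chemical loss of function side by side. The study calls the 3 libraries of a group biological replicates, but whether each pooled several animals was not stated. No treatment with an interferon or a virus was described for any group.

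Type I and type III interferons signal through JAK kinases to a complex that holds STAT2 and IRF9 and binds the interferon-stimulated response element (ISRE), while interferon gamma acts mainly on the gamma-activated site (GAS). The genes so induced encode sensors of foreign RNA and DNA, enzymes that degrade or block viral RNA, membrane proteins that stop viral entry, ubiquitin-like modifiers, GTPases that attack vacuoles, and the antigen peptide transporter. Many are also held at a low constitutive level in cells that meet no pathogen, by tonic signaling or by interferon regulatory factors acting alone. Several sit in clusters of duplicated genes. In the present annotation Ifit1, Ifit2 and Ifit3 lay together on chromosome 19, the Ifitm genes on chromosome 7, and the Gbp genes on chromosome 3.

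The promoters of these genes carried the letters of the ISRE more often than promoters at large. Of the 42 genes, 32 had an entry in the RefSeq promoter set (GRCm38.p6), which covers 250 bases before and 50 after each start site. The letters GAAA, any 2 bases and GAAA again, read on either strand, were present in 18 of these 32 (56.25%) and in 3.99% of all 27025 genes with an entry. The GAS letters TTCNNNGAA were present in 9 of 32 (28.1%) against 9.55% of all genes. A match is a description of the letters and does not show that a factor bound there. The following stretches are shown because the 6 genes behaved differently although all are interferon targets. Isg15, Ifit1 and Irgm1 hold the letters (capitals), overlapping one another in Isg15 and Irgm1, and so does Ifit3, which rose with both inhibitors. Ifi44, with the largest log2 rise of the list under IWR-1, and Ifitm3, with the largest fall, held none in the bases shown. Each is written 5′ to 3′ on the gene's own strand, and annotated untranslated bases were left out.
Isg15 (chr4:156200819-156201068, GRCm38.p6, - strand): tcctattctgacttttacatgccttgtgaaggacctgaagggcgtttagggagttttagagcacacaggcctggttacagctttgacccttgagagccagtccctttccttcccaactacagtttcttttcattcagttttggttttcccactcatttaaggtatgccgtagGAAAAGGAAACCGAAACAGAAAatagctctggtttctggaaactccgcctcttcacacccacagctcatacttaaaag
Ifit1 (chr19:34640744-34640870, GRCm38.p6, + strand): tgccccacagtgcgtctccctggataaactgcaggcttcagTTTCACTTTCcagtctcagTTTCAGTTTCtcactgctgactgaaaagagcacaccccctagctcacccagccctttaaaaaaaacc
Ifit3 (chr19:34583279-34583528, GRCm38.p6, + strand): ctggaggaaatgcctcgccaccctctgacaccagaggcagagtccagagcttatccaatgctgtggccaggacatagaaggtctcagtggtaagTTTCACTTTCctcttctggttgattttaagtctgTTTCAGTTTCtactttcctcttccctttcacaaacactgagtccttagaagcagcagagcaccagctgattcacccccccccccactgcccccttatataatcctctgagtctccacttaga
Irgm1 (chr11:48871421-48871670, GRCm38.p6, - strand): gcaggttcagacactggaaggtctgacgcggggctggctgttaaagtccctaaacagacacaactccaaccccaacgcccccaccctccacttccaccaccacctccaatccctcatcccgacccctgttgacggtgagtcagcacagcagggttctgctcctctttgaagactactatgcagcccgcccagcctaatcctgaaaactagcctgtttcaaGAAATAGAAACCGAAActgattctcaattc
Ifi44 (chr3:151749961-151750160, GRCm38.p6, - strand): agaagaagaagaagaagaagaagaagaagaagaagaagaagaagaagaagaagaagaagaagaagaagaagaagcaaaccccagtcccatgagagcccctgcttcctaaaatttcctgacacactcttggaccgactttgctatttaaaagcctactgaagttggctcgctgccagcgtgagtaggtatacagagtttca
Ifitm3 (chr7:141010771-141010994, GRCm38.p6, - strand): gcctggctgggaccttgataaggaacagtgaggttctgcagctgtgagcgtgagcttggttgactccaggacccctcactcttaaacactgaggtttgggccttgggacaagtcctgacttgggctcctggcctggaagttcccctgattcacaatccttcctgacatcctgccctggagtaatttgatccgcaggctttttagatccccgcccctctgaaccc

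In Ifitm3 the ISRE letters occurred 2 times, at bases 2 to 11 and 19 to 28 after the start site. Cmpk2, Irf7, Tap1 and Ifi44 held no match in the whole window. The Ifi44 stretch shown ends 51 bases before the start site. The bases left out there continue a run of TTTC repeats (GAAA on the other strand), spaced otherwise than the ISRE letters. Of the 18 genes with a match, 15 kept one when only the upstream bases were read (46.9% of 32, against 3.46% of all genes).

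The libraries held between 26857070 and 36615194 counts. Knockdown was checked first. Tnks stood at 69.0, 58.4 and 70.1 CPM (each count taken relative to the normalised size of its library) in siCtrl and at 19.5, 12.7 and 24.0 in siTnks/2, and Tnks2 at 118, 120 and 115 against 58.2, 44.9 and 61.2. The cells expressed all 12 chondrocyte markers, whose summed level lay between 28540 and 217528 CPM in every library. The 13 leukocyte markers summed to between 8.54 and 44.7 CPM, and Ptprc, the pan-leukocyte marker, never exceeded 0.157 CPM. In bulk RNA, fewer cells of a type and less RNA per cell cannot be told apart. The low levels also set which genes could be tested. After the filter on low counts, 32 of the 42 genes were tested in the siRNA set and 34 in the inhibitor set. Zbp1, Oas2, Oas3, Oasl1, Oasl2, Mx1 and Iigp1 passed in neither set, Mx2, Ifitm1 and Gbp5 failed in the siRNA set alone, and Oas1a failed in the inhibitor set alone. The highest level of any untested gene was 1.07 CPM, for Oasl2 in siCtrl replicate 3, where it had 35 counts beside 2 to 19 in the other siRNA libraries. Mx1 and Iigp1, classical markers of an interferon response, never exceeded 3 counts in any of the 15 libraries, and Oas2 never exceeded 4.

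One library stood apart in these genes and bears on every siRNA result. In replicate 3 of siCtrl, 28 of the 32 tested genes reached their highest level of all 6 siRNA libraries, whereas 16.2% of all genes tested peaked there. Within siCtrl, replicate 3 was the highest for 31 of 32, and for 13 of them it was more than 2-fold above the next library, which was true of 0.395% of all genes. Isg15, the ubiquitin-like modifier, read 2.77, 1.55 and 15 CPM in the 3 siCtrl libraries, and Bst2, the membrane tether of budding virions, read 7.84, 5.51 and 23.9 CPM. Replicate 3 of siTnks/2 was likewise the highest of its group for 25 of 32 genes (35.1% of all genes). Replicate 2 of siTnks/2 was the lowest of all 6 for 17 genes (30.1% of all genes). It was also the only library in which the endothelial markers Pecam1 and Cdh5 stood above 2 CPM. They read 3.17 and 2.28 CPM there, against at most 0.259 and 0.111 in the other siRNA libraries. The part of those cells was not tested. In the inhibitor set no library ranked first for more than 13 of 34 genes. That count belonged to XAV939 replicate 1, where 9.35% of all genes peaked. The per-library plot shows the shift of the list in siCtrl replicate 3 and the similar medians of the libraries within each inhibitor group.

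**Figure D1:**
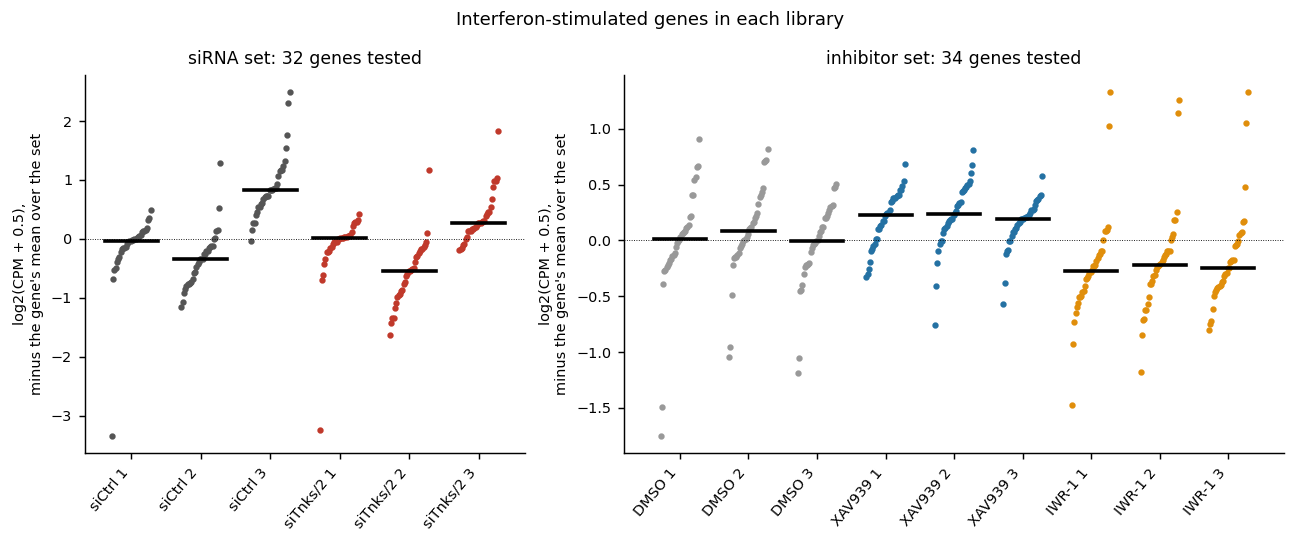
Each point is 1 gene in 1 library, as log2(CPM + 0.5) minus that gene's mean over its set, and the black bar is the median over these genes, 32 for the siRNA libraries and 34 for the inhibitor libraries. The bar of siCtrl replicate 3 lies at 0.82, above the bars of the other siRNA libraries, which run from -0.54 to 0.26, while the 3 libraries of each inhibitor group lie close together. The lowest point in replicate 1 of both siRNA groups is Ifit3.

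Chondrocytes of both control groups expressed most of the list at a low level. Those of siCtrl had been transfected, and the siCtrl averages include replicate 3, which stood apart in these genes. At 1 CPM or more on average stood 30 of 42 genes in siCtrl and 28 in DMSO. Per length (RPKM), the membrane proteins Ifitm2 and Ifitm3, which restrict viral entry, and Ifi27, a small interferon-induced membrane protein, led in both control groups. Ifitm2 reached 255 ± 13.3 RPKM in siCtrl and 835 ± 209 in DMSO (SD, n = 3), Ifitm3 85.0 ± 31.9 and 315 ± 32.4, and Ifi27 61.1 ± 12.2 and 58.6 ± 11.9. Next in DMSO came Isg20, an RNA exonuclease, at 16.8 ± 3.70 RPKM, and Bst2 at 11.1 ± 0.645, followed by a run of genes between 1 and 10 RPKM in which neighbours overlapped within 1 SD except between Trim25 and Stat2 and between Isg15 and Ifit2. At the other end, Oas2, Mx1 and Iigp1 averaged at most 0.00928 RPKM in either group.

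Most of these genes overlapped in level between the control groups. With all 15 libraries scaled together, 8 genes were higher in all 3 DMSO than in all 3 siCtrl libraries. A further 7 were lower, and 27 overlapped. Of the 14271 genes that passed the filter on low counts, 27.6%, 29.9% and 42.5% did so, whereas the 42 genes were counted without a filter. Iigp1, which never exceeded 3 counts, was among the 7. Transfection, vehicle and set differ between these groups, and culture time, not given for the siRNA set, may differ as well. These cannot be told apart, so no test was made. Gbp5, a guanylate-binding GTPase, averaged 0.142 CPM in siCtrl and 3.35 in DMSO, Gbp2 4.50 and 17.8, and Ifitm1 0.207 and 1.45. In the other direction, Ifit1, which binds viral RNA caps, averaged 6.86 CPM in siCtrl and 0.889 in DMSO, Ifit2 20.4 and 5.36, and Ifi44 8.06 and 1.19. The siCtrl means of Ifit1 and Ifi44 were carried by replicate 3: the lowest and highest siCtrl libraries read 1.38 and 16.6 CPM for Ifit1 (SD 8.49) and 4.55 and 14.1 CPM for Ifi44 (SD 5.25). Among the genes without overlap, all 3 Ifitm genes, Gbp2 and Gbp5 stood higher in the vehicle-treated cells. Ifit1, Ifit2 and Ifi44 stood higher in the transfected ones.

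**Figure D2:**
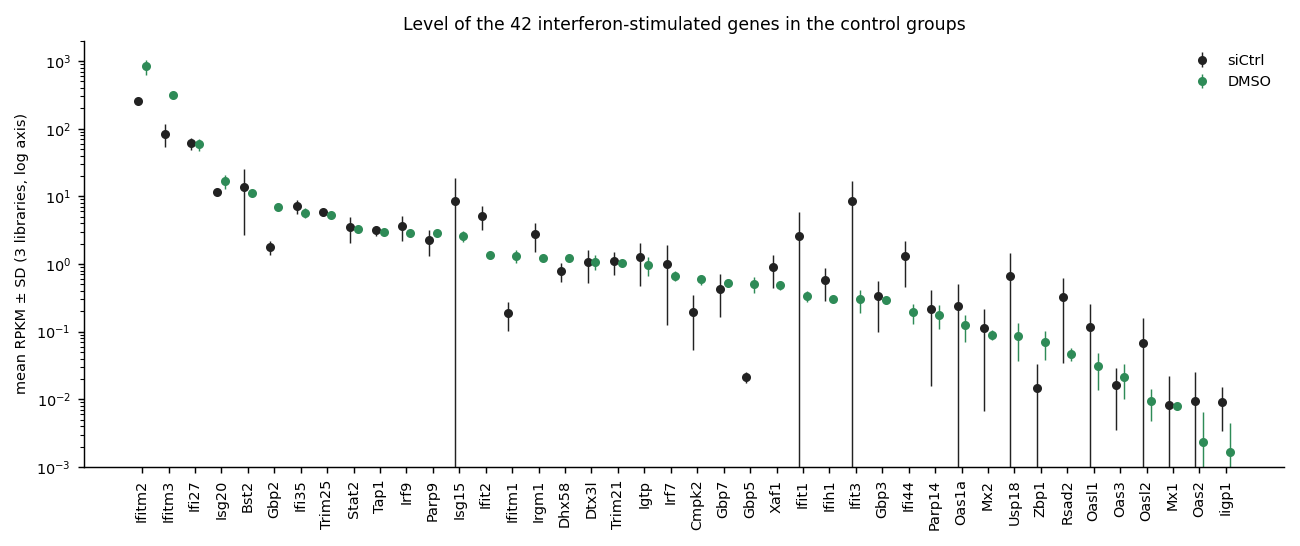
Points are mean RPKM on a log axis for siCtrl (black) and DMSO (green), bars are the SD of 3 libraries, and genes are ordered by their level in DMSO. Bars that reach the foot of the plot extend below 0.001 RPKM. Ifitm2, Ifitm3 and Ifi27 lead in both groups, Gbp5 and Ifitm1 are far lower in siCtrl, and Ifit1, Ifit3 and Ifi44 are higher there with wide bars.

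Knockdown of Tnks and Tnks2 changed 1 of the 32 tested genes by edgeR's quasi-likelihood test, where 18% of all 13672 genes were called. None rose (10.4% of all genes did) and Ifitm2 fell (7.61% of all genes fell), and DESeq2 likewise called 0 higher and 1 lower. At an unadjusted p under 0.05 stood 2 genes, Ifitm2 and Tap1, the same 2 in which all siTnks/2 libraries lay below all siCtrl libraries (22.2% of all genes), while none lay wholly above (21.6%). Ifitm2 read 159, 161 and 175 CPM in siCtrl and 126, 128 and 127 in siTnks/2. The groups did not overlap, a log2 change of -0.38 (SE 0.06, adjusted p = 0.00993). About 48.5% of the 50-base windows of Ifitm2 transcripts are shared with an overlapping gene model, Gm45717, so its counts may be split between them. Without both replicate 1 libraries or without both replicate 3 libraries the fall had the same direction but no longer passed, and edgeR called 0 genes, with 2 at an unadjusted p under 0.05 in each case.

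The list as a whole lay below 0 in this contrast, and its sign turned when siCtrl replicate 3 alone was left out. The median log2 fold change of the 32 genes was -0.34, against -0.0012 over all genes tested, with 28 of 32 negative. Without siCtrl replicate 3 the median became 0.13. That fit kept its partner, siTnks/2 replicate 3, which was the highest of its group for 25 of 32 genes. Because same-numbered libraries varied together, each pair of libraries can be read on its own: the median change of the list was 0.040 in pair 1, -0.17 in pair 2 and -0.54 in pair 3. In pair 1, 18 genes were higher and 14 lower after knockdown, while in pair 3 the count was 3 higher and 29 lower. Lower in every pair were 10 of the 32 genes, beside 34.9% of all genes.

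With the replicate number as a block, the knockdown calls rose to 9 genes, 1 higher and 8 lower, where 34.6% of all genes were called. Ifi44, a cytoplasmic interferon-induced protein, was higher. Ifi44 read 5.44, 4.51 and 13.9 CPM in siCtrl and 11.1, 7.95 and 16.9 in siTnks/2, so each knockdown library exceeded its partner although the groups overlapped, a log2 change of 0.58 (SE 0.46, adjusted p = 0.407) that became 0.67 (adjusted p = 0.0256) in the blocked fit. The 8 lower genes were Ifit1, Ifit2, Ifitm2, Ifitm3, Gbp2, Igtp, Irgm1 and Tap1.

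Ifitm3 read 57.6, 35.3 and 77.9 CPM in siCtrl and 39.4, 15.8 and 46.5 in siTnks/2, lower in each pair but overlapping between groups. Its log2 change was -0.75 (SE 0.42, adjusted p = 0.252), and -0.80 (adjusted p = 0.0071) with the block. Ifit2, a partner of Ifit1 and Ifit3 in RNA-binding complexes, stood at 11.7, 21.9 and 26.9 CPM in siCtrl and 9.06, 10.6 and 17.0 after knockdown, a change of -0.72 (SE 0.34, adjusted p = 0.182) that became -0.70 (adjusted p = 0.0149) with the block. Tap1, which loads peptides for antigen presentation, fell from 15.5, 14.9 and 20.3 CPM to 14.2, 11.8 and 13.1 in the blocked fit only (adjusted p = 0.106 without and 0.0495 with the block). Ifit1 ranged from 1.37 to 16.4 CPM in siCtrl and from 0.463 to 3.52 in siTnks/2. When both replicate 3 libraries were left out of the blocked fit, 3 genes were called, Ifi44 higher and Ifitm2 and Ifitm3 lower.

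Ifit3 could not be read as a change of the knockdown. It stood at 0.0933 and 0.139 CPM in replicate 1 of siCtrl and siTnks/2, but between 13.2 and 29.3 CPM in the other 4 libraries of the siRNA set. Its neighbour Ifit3b, with which it shares 51.2% of its 50-base windows, was also lowest in replicate 1, at 0.933 and 1.04 CPM against 2.17 to 10.1 elsewhere. How the counting divided shared reads was not given in the sources used here. Among the remaining genes of highest level in their group, Stat2 (-0.06, adjusted p = 0.906), Ifih1 (-0.34, 0.647), Oas1a (0.36, 0.82), Trim25 (0.07, 0.689) and Ifi27 (0.08, 0.779) did not pass, with or without the block. Nor did Irf9 (-0.28, adjusted p = 0.542), which had the smallest adjusted p of the transcription factor and feedback genes. Stat2 read 18.8, 13 and 29.4 CPM in siCtrl and 19.6, 15.8 and 23.5 in siTnks/2, Irf9 15.3, 14.8 and 28.7 against 16.4, 11.6 and 20.2, and Ifih1 3.95, 2.73 and 7.44 against 3.92, 1.75 and 5.45. In all 3 genes replicate 3 was the high library of both groups, and the groups overlapped. Oas1a, a synthetase of the oligoadenylate signal that activates RNase L, read 0.280, 0.037 and 1.01 CPM in siCtrl and 0.451, 0.0356 and 1.31 in siTnks/2, and it shares 57.6% of its 50-base windows with Oas1g. Trim25, a ubiquitin ligase of RNA sensing, read 31.8, 30.4 and 37.6 CPM against 34.4, 31.5 and 39.0, and Ifi27 81.6, 75.4 and 109 against 105, 76.3 and 99.0. Dhx58 read 2.18, 2.00 and 3.52 CPM against 1.87, 2.00 and 2.25, with an adjusted p of 0.381. The 95% intervals of the most variable genes were wide: that of Isg15 ran from -2.53 to 1.82 on the log2 scale.

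**Figure D3:**
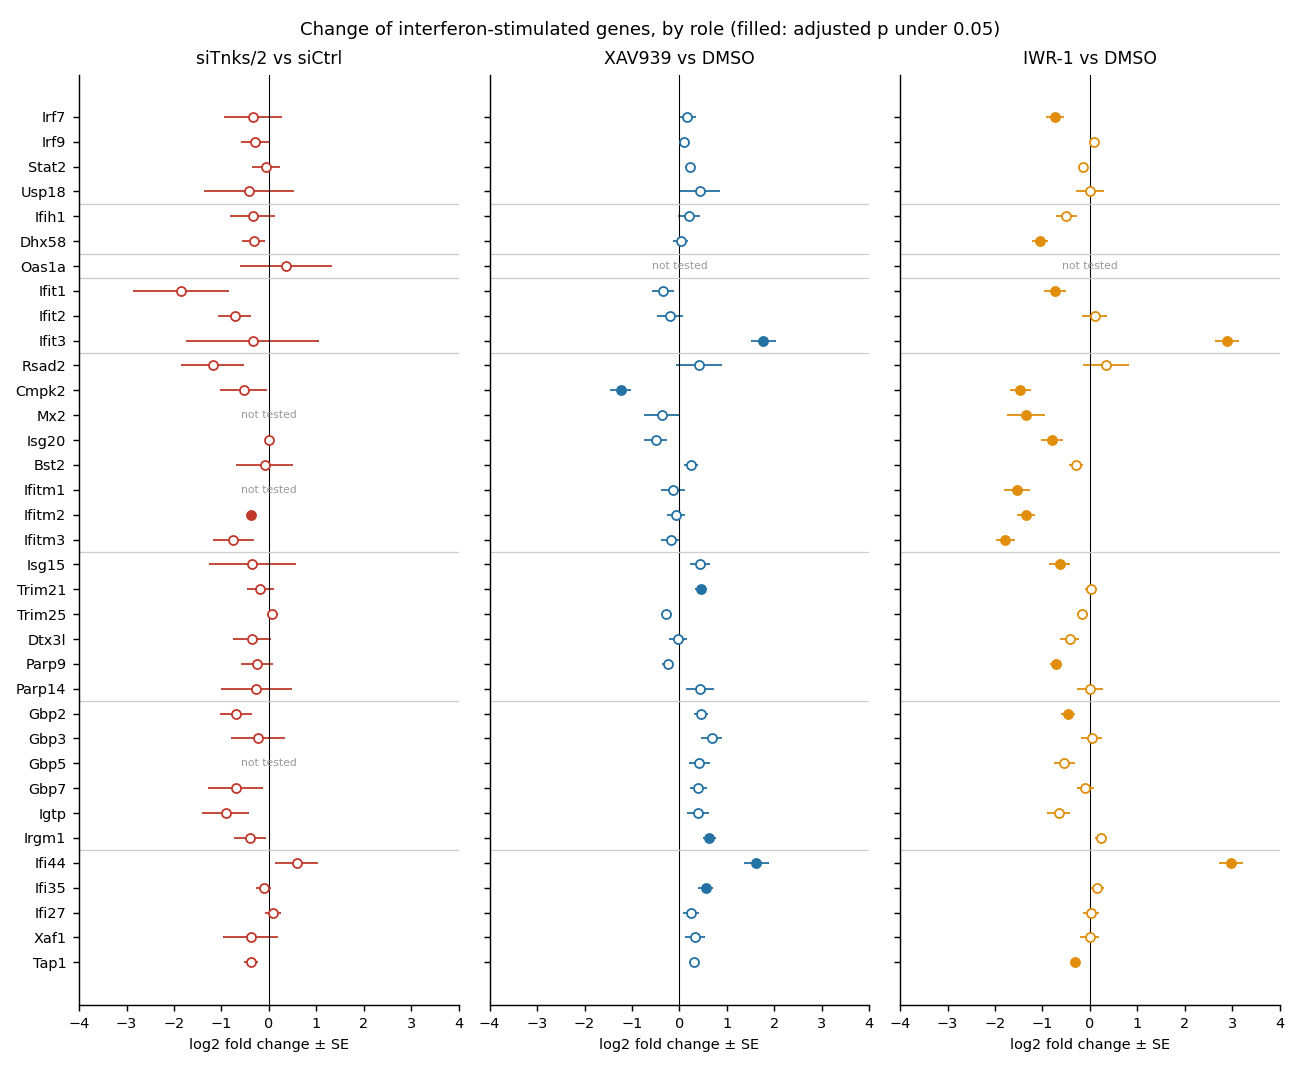
Log2 fold changes with their SE for the 35 genes tested in at least 1 set, grouped by role from the transcription factors at the top to the other genes at the bottom, with filled points for adjusted p under 0.05. The knockdown panel has 1 filled point, Ifitm2. The XAV939 panel has 6, of which Cmpk2 alone lies below 0, and the IWR-1 panel has 15, with Ifit3 and Ifi44 far to the right.

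XAV939 changed 6 of 34 tested genes, where 17.4% of all 13873 genes were called. Ifi44, Ifit3, Irgm1, Ifi35 and Trim21 rose (7.57% of all genes rose), and Cmpk2 fell (9.85% fell). The median log2 fold change of the list was 0.24, against 0.016 over all genes. Ifi44 read 0.732, 1.51 and 1.32 CPM in DMSO and 3.96, 4.73 and 2.68 with XAV939. The groups did not overlap, and Ifi44 rose by 1.62 on the log2 scale (SE 0.26, adjusted p = 0.00228). Ifit3 read 0.305, 0.669 and 0.597 CPM in DMSO and 1.48, 2.10 and 2.25 with XAV939, again without overlap, and rose by 1.77 (SE 0.26, adjusted p = 0.00147).

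Among the GTPases all 6 tested genes had positive values with XAV939 and 1 passed, and in 5 of the 6 all treated libraries exceeded all DMSO libraries (16.4% of all genes did so). Irgm1, an immunity-related GTPase of vacuole and autophagy control, read 7.62, 7.51 and 6.60 CPM in DMSO and 12.3, 9.91 and 11.6 with XAV939, a rise of 0.63 (SE 0.13, adjusted p = 0.00732). Gbp2 read 19.3, 19.0 and 15.1 CPM in DMSO and 28.7, 20.8 and 23.5 with XAV939. Its change of 0.45 (SE 0.15) gave an adjusted p of 0.0578, and of 0.0131 with the block, where Gbp3 and Tap1 also passed upward. The blocked fit called 11 of the 34 genes, 8 higher and 3 lower, where 33.4% of all genes were called, and its further lower genes were Isg20 and Trim25.

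Trim21, an antibody receptor and ubiquitin ligase, read 3.81, 3.87 and 4.02 CPM in DMSO and 5.66, 5.52 and 4.97 with XAV939, a rise of 0.46 (SE 0.13, adjusted p = 0.037). Ifi35, an interferon-induced leucine zipper protein, read 9.48, 11.8 and 8.39 CPM in DMSO and 16.0, 14.0 and 13.6 with XAV939, a rise of 0.55 (SE 0.15, adjusted p = 0.0311). Both calls were fragile. That of Trim21 was lost in 13 of 19 alternative fits and that of Ifi35 in 9 of 19, including those without DMSO replicate 1, DMSO replicate 3, XAV939 replicate 1 or XAV939 replicate 2 for both genes. Cmpk2, a mitochondrial nucleotide kinase that lies beside Rsad2 on chromosome 12, read 2.90, 2.47 and 2.01 CPM in DMSO and 0.943, 0.863 and 1.20 with XAV939. The groups did not overlap, and it fell by 1.24 (SE 0.21, adjusted p = 0.00304). Genes high in their group but not called included Trim25, at 30.2, 28.1 and 34.3 CPM in DMSO and 23.3, 27.2 and 26.0 with XAV939 (-0.28, adjusted p = 0.113), Ifi27, at 90.7, 101 and 66.2 CPM against 118, 104 and 83.3, and Stat2, at 18.3, 19.3 and 22.0 CPM against 23.9, 21.7 and 23.6, which overlapped. Rsad2, the neighbour of Cmpk2, stood at 0.175 to 0.251 CPM in DMSO and 0.108 to 0.563 with XAV939, so the groups overlapped.

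IWR-1 changed 15 of 34 tested genes, where 36.4% of all 13873 genes were called. Ifi44 and Ifit3 rose (2 of 34, against 16.2% of all genes), and 13 genes fell (38.2%, against 20.2% of all genes). The fallers were Irf7, Dhx58, Ifit1, Cmpk2, Mx2, Isg20, Ifitm1, Ifitm2, Ifitm3, Isg15, Parp9, Gbp2 and Tap1. The median log2 fold change of the list was -0.31, against 0.0056 over all genes. The blocked fit called 19 genes, 2 higher and 17 lower, with Bst2, Dtx3l, Gbp5 and Igtp added to the fallers, where 47.5% of all genes were called, 22.2% higher and 25.3% lower.

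Ifi44 read 9.94, 9.44 and 9.92 CPM with IWR-1, against 0.732, 1.51 and 1.32 in DMSO. No library overlapped, and the rise was 2.97 on the log2 scale (SE 0.26, adjusted p = 1.55e-05) with a 95% interval from 2.39 to 3.55. Ifit3 read 4.13, 4.53 and 4.2 CPM with IWR-1, against 0.305, 0.669 and 0.597, a rise of 2.89 (SE 0.26, adjusted p = 1.73e-05). Ifit3b rose as well, from 0.233 to 0.305 CPM in DMSO to 0.610 to 1.3 with IWR-1 (log2 fold change 1.56, adjusted p = 0.00302). The other genes of the IFIT family did not follow. Ifit1 fell from 1.07, 0.815 and 0.786 CPM to 0.610, 0.449 and 0.464 (-0.74, SE 0.23, adjusted p = 0.0277), a call lost with DESeq2 and without DMSO replicate 1, IWR-1 replicate 2 or IWR-1 replicate 3. Ifit2 read 5.03, 5.12 and 5.94 CPM in DMSO and 5.61, 4.27 and 7.34 with IWR-1, which overlap (0.10, SE 0.26, adjusted p = 0.804). Ifit1 and Ifit3, which moved in opposite directions, both hold 2 matches to the ISRE letters before their start.

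Most antiviral effectors fell with IWR-1. Of 8 tested, 6 were called lower and none higher, and in 7 all IWR-1 libraries lay below all DMSO libraries (26.4% of all genes did so). Ifitm3 read 214, 237 and 190 CPM in DMSO and 47.9, 59.1 and 79.5 with IWR-1, a fall without overlap of -1.78 on the log2 scale (SE 0.20, adjusted p = 6.94e-05), to 0.291 of the DMSO level. Ifitm2 read 613, 642 and 387 CPM in DMSO and 204, 216 and 223 with IWR-1 (-1.35, SE 0.19, adjusted p = 0.000309). Ifitm1, the low member of the trio, read 1.71, 1.57 and 1.07 CPM against 0.552, 0.417 and 0.406 (-1.54, SE 0.28, adjusted p = 0.00149). All 3 Ifitm genes therefore moved the same way, and each kept its call in all 19 alternative fits.

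Cmpk2 read 0.727, 0.963 and 0.870 CPM with IWR-1, below the 2.01 to 2.90 of DMSO, and fell by 1.47 (SE 0.22, adjusted p = 0.000376). Isg20 read 33.3, 37 and 23.3 CPM in DMSO and 19.2, 19.7 and 14.6 with IWR-1 (-0.80, SE 0.24, adjusted p = 0.0212). Mx2, a dynamin-like GTPase, was near its limit of detection, at 0.274 to 0.377 CPM in DMSO and 0.029 to 0.16 with IWR-1. Its fall (-1.34, SE 0.39, adjusted p = 0.021) rests on 1 to 12 counts in each inhibitor library. Only 11 of 19 alternative fits gave Mx2 a result, and its call was lost without DMSO replicate 3. Bst2 read 10.1, 10.7 and 9.40 CPM in DMSO and 8.40, 9.05 and 7.02 with IWR-1, and passed with the block alone (-0.30, adjusted p = 0.14 without and 0.0359 with it).

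The sensor and regulator genes held 1 called fall each with IWR-1. Dhx58 (LGP2), a helicase that modulates RNA sensing, read 3.75, 4.37 and 3.93 CPM in DMSO and 1.71, 1.73 and 2.23 with IWR-1, without overlap (-1.06, SE 0.17, adjusted p = 0.000586). Irf7, the factor that amplifies type I interferon production, read 2.38, 3.06 and 2.17 CPM against 1.48, 1.41 and 1.59 (-0.74, SE 0.19, adjusted p = 0.0106). Stat2 and Irf9, which act together at the ISRE, gave log2 changes of -0.14 (adjusted p = 0.351) and 0.09 (adjusted p = 0.567), and their libraries overlapped those of DMSO. Stat2 read 18.5, 17.8 and 17.8 CPM with IWR-1, and Irf9 14.9, 15.8 and 15.8 CPM in DMSO and 17.1, 16.6 and 15.7 with IWR-1. Ifih1 (MDA5), a sensor of long RNA, read 2.29, 2.42 and 2.77 CPM in DMSO and 1.48, 1.32 and 2.44 with IWR-1, with an adjusted p of 0.118.

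Isg15 read 2.01, 2.33 and 1.57 CPM in DMSO and 1.08, 1.48 and 1.19 with IWR-1 (-0.64, SE 0.21, adjusted p = 0.0367). Parp9, an ADP-ribosyltransferase family member, read 14.8, 14.0 and 12.8 CPM against 7.88, 9.34 and 8.0 (-0.72, SE 0.12, adjusted p = 0.00082). Its partner Dtx3l, whose exons overlap those of Parp9 on the opposite strand, read 5.73, 4.89 and 7.79 CPM against 4.21, 4.65 and 4.75 and passed with the block alone (-0.43, adjusted p = 0.109 without and 0.0331 with it). The strand setting of the counting was not given, so reads from the overlap cannot be assigned here. Gbp2 fell from 19.3, 19.0 and 15.1 CPM to 13.8, 11.7 and 13.2 (-0.46, SE 0.15, adjusted p = 0.0315) and Tap1 from 16.8, 16.1 and 15.6 CPM to 12.8, 13.7 and 12.4 (-0.32, SE 0.10, adjusted p = 0.0351). The calls of Isg15, Isg20, Gbp2 and Tap1 were each lost on leaving out DMSO replicate 1, DMSO replicate 2 or IWR-1 replicate 3, and that of Tap1 also with upper-quartile normalization and with no filter. Of the 34 genes, 18 were lower than DMSO in every same-numbered pair with IWR-1, beside 34.6% of all genes.

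Markers listed for other cell types moved in the same comparison. Cd14 of the leukocyte list and Prg4 of the fibroblast list are also cartilage-signature genes of the study, higher in chondrocytes than in embryonic fibroblasts. These genes therefore do not mark other cells alone. The 13 leukocyte markers summed to 35.2 to 44.7 CPM in DMSO, 32.3 to 38.8 with XAV939 and 14.8 to 20.5 with IWR-1. Of the 5 tested, 3 fell with IWR-1, Cd14, Cd68 and Csf1r, where 20.2% of all genes fell. In DMSO 4 of the 13 stayed at 3 counts or fewer in every library. The 8 fibroblast markers summed to 12506 to 16204 CPM in DMSO, 6543 to 9307 with XAV939 and 6041 to 9540 with IWR-1. The 12 chondrocyte markers summed to 28540 to 38685 CPM in DMSO, 40048 to 60063 with XAV939 and 96800 to 122774 with IWR-1. All 12 were called higher with IWR-1, beside 5 of 12 with XAV939 and 5 of 12 with knockdown. Over all genes tested, 16.2% rose with IWR-1, 7.57% with XAV939 and 10.4% with knockdown. With the replicate block the chondrocyte calls became 11 of 12 with XAV939 (16% of all genes rose) and 10 of 12 with knockdown (18.1%). The 6 endothelial markers summed to 1.72 to 3.11 CPM in DMSO, 1.29 to 1.98 with XAV939 and 0.835 to 0.87 with IWR-1, and both tested, Tek and Vwf, fell with IWR-1. The 5 osteoblast markers summed to between 75.8 and 103 CPM in the inhibitor set. Of 4 tested there, 2, Bglap and Sp7, were called higher with either inhibitor. The part of these cells in the changes of the interferon-stimulated genes was not tested.

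**Figure D4:**
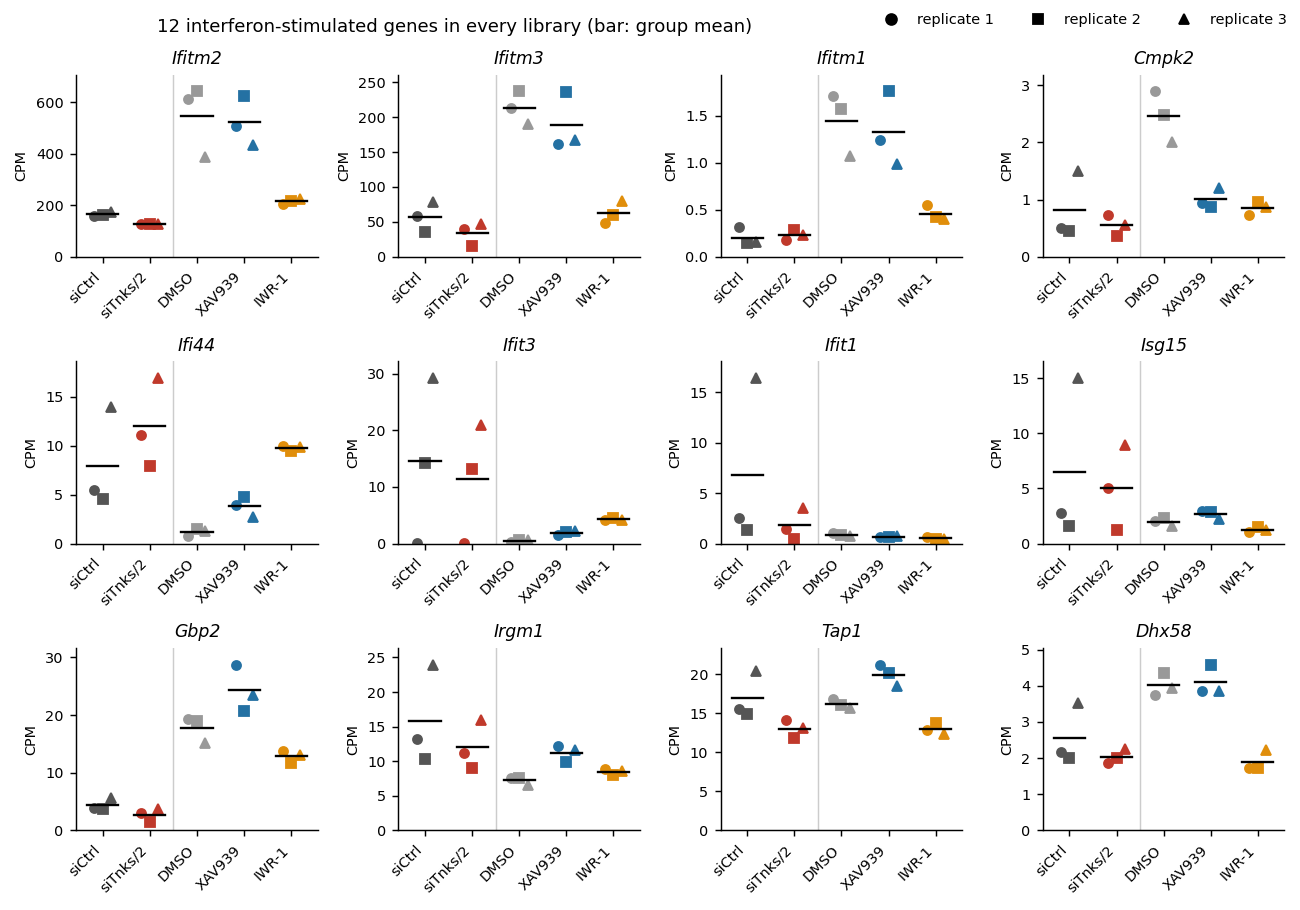
CPM of 12 interferon-stimulated genes in every library on linear axes from 0, with a marker shape per replicate and a bar at the group mean; the line separates the siRNA set from the inhibitor set, whose levels were scaled separately. The Ifitm genes and Dhx58 drop with IWR-1 and stay near DMSO with XAV939, Cmpk2 is low with both inhibitors, and Ifi44 and Ifit3 rise from DMSO to XAV939 to IWR-1. Triangles for siCtrl (replicate 3) stand high in Ifit1, Isg15 and Irgm1.

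The inhibitors were given at the same dose and for the same time, so they can be compared directly, and this was the 1 pair of compounds in the data. Between IWR-1 and XAV939, 16 of the 34 genes differed, where 17.6% of all 13873 genes were called: 2 were higher with IWR-1 (7.37% of all genes) and 14 lower (10.2%). The median difference over the list was -0.44, against -0.0032 over all genes, and in 21 of 34 all IWR-1 libraries lay below all XAV939 libraries, which held for 19.4% of all genes. The higher genes were again Ifi44, with a difference of 1.36 (95% interval 0.83 to 1.88, adjusted p = 0.00325), and Ifit3, with 1.12 (0.61 to 1.63, adjusted p = 0.00756). Both had risen with either compound, so here the inhibitors differed in extent and not in direction.

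The lower genes were Irf7, Stat2, Dhx58, Bst2, Ifitm1, Ifitm2, Ifitm3, Isg15, Trim21, Parp9, Gbp2, Gbp5, Igtp and Tap1. Ifitm3 was the furthest apart, at 162, 236 and 167 CPM with XAV939 and 47.9, 59.1 and 79.5 with IWR-1 (-1.60, 95% interval -2.04 to -1.16, adjusted p = 0.00057). The log2 change of Ifitm3 from DMSO to XAV939 was -0.18 (adjusted p = 0.547). Dhx58 read 3.85, 4.58 and 3.86 CPM with XAV939, beside 1.71, 1.73 and 2.23 with IWR-1 (-1.09, -1.46 to -0.72, adjusted p = 0.00165). The GTPases all lay lower with IWR-1: all 6 tested had every IWR-1 library below every XAV939 library, and Gbp2 (-0.91, adjusted p = 0.00212), Gbp5 (-0.96, 0.0145) and Igtp (-1.05, 0.0125) passed. Tap1 read 21.2, 20.2 and 18.5 CPM with XAV939 and 12.8, 13.7 and 12.4 with IWR-1 (-0.62, adjusted p = 0.00263), on either side of the 15.6 to 16.8 CPM of DMSO. With the replicate block 21 genes differed, 2 higher and 19 lower with IWR-1, where 30.7% of all genes were called. The genes added were Ifih1, Gbp3, Gbp7, Irgm1 and Ifi35, all lower with IWR-1, so that all 6 tested GTPases passed. Irgm1 read 8.84, 8.02 and 8.64 CPM with IWR-1, below the 9.91 to 12.3 CPM of XAV939 (-0.40, adjusted p = 0.0525 without and 0.0208 with the block). The count of differing genes fell to 10 without IWR-1 replicate 1 and to 3 without replicate 1 of every group.

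For other genes no difference between the compounds was found, and the intervals state what remains possible. Cmpk2, which fell with both, differed by -0.23 (95% interval -0.73 to 0.27, adjusted p = 0.54). Irf9 differed by -0.01 (-0.25 to 0.22, adjusted p = 0.946) and Trim25 by 0.11 (-0.13 to 0.36, adjusted p = 0.528). Rsad2 (-1.19 to 1.03) and Usp18 (-1.38 to 0.53) were low, and their intervals wide. In all, 13 of the 35 genes tested in either set were called in none of the 4 comparisons without the block: Irf9, Usp18, Ifih1, Oas1a, Ifit2, Rsad2, Trim25, Dtx3l, Parp14, Gbp3, Gbp7, Ifi27 and Xaf1.

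**Figure D5:**
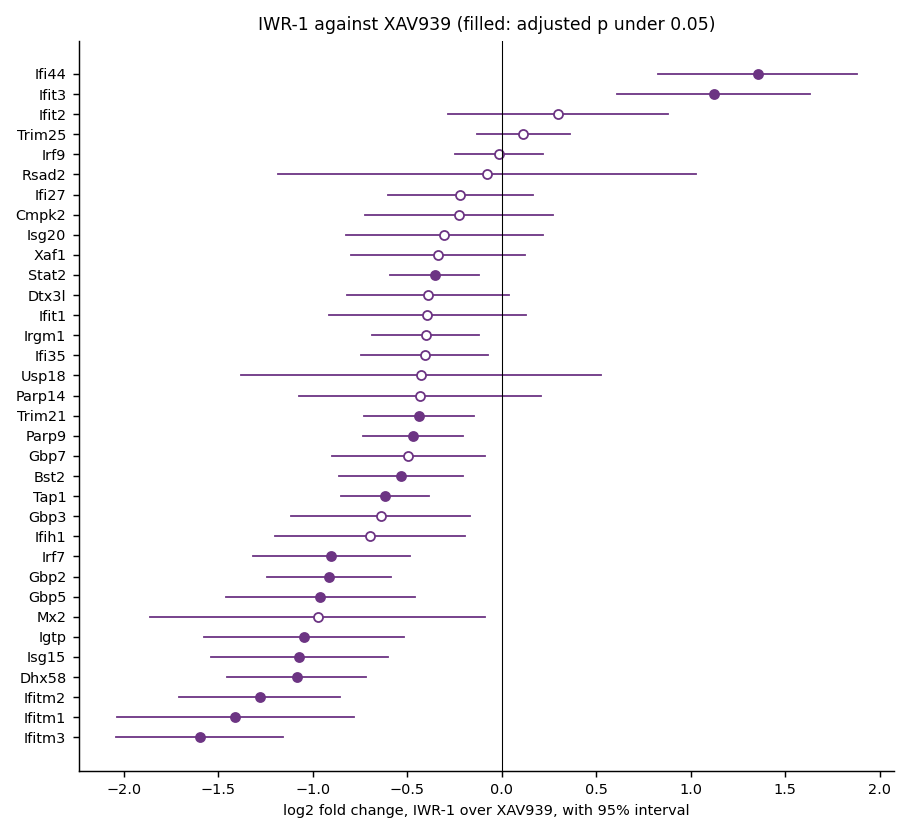
Difference between IWR-1 and XAV939 in log2 units with its 95% interval for the 34 genes tested, ordered by size, with filled points for adjusted p under 0.05. Ifi44 and Ifit3 are the 2 filled points above 0, 14 filled points lie below 0, and the lowest are Ifitm3, Ifitm1, Ifitm2 and Dhx58.

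Whether an inhibitor acted on a gene as knockdown did was tested as a difference of effects over all 15 libraries. Against XAV939, 2 of the 35 genes differed (13.5% of all 14271 genes tested were called), Gbp2 and Tap1, both with the lower value for knockdown (5.4% of all genes, and 8.07% the other way). Against IWR-1, 3 differed (24.4% of all genes): Ifitm1 and Ifitm2 with the higher value for knockdown (13.9%) and Ifi44 with the lower (10.5%). Ifitm1 had only 4 to 10 counts in each siRNA library and failed the filter there, so it entered this fit through the inhibitor libraries and its change with knockdown could hardly be measured. With the replicate block 11 genes differed against XAV939 (28.2% of all genes), 9 of them lower for knockdown, and 11 against IWR-1 (36.3%), 7 of them higher, among which Oas1a in turn failed the filter in the inhibitor set. Ifitm2, the gene called in both sets, fell by 0.38 with knockdown and by 1.35 with IWR-1 on the log2 scale. Set differs along with the mode of tankyrase loss, and culture may differ too. These cannot be told apart in this test.

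The interferon pathway around these genes was read from 4 further lists. Of 12 interferon ligand genes, including Ifnb1, Ifng and several alpha genes, the summed level was at most 0.146 CPM in any library, none passed the filter, and Ifnb1 was at 0 in all 15. A count of 0 allows up to 0.0819 to 0.112 CPM at these depths (3 counts; counting error only). Receptors and signal transducers were expressed.

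In the list of 18 tested receptors and transducers, IWR-1 lowered 9 (50%, against 20.2% of all genes) and raised 2 (11.1%, against 16.2%). XAV939 lowered 1 (5.56%, against 9.85%) and raised 1 (5.56%, against 7.57%). Knockdown lowered none and raised 1 (5.56%, against 10.4%), Jak2, a kinase of the receptors (0.34, adjusted p = 0.0492). With the replicate block knockdown raised 5 and lowered 1, where 18.1% and 16.5% of all genes were called. XAV939 then raised 3 and lowered 2, where 16% and 17.4% were called. Jak2 also rose with IWR-1, from 39.5, 50.2 and 54.3 CPM in DMSO to 65.4, 69.2 and 71.5 (0.52, SE 0.13, adjusted p = 0.00933). Ifnar1, a chain of the type I receptor, read 88.6, 81.5 and 88.3 CPM in DMSO and 70.2, 68.6 and 72.8 with IWR-1 (-0.29, adjusted p = 0.0255). Irf1, which also acts on ISRE letters, read 32.8, 32.5 and 32.6 CPM against 23.2, 23.2 and 24.9 (-0.46, adjusted p = 0.0139). Socs3, a feedback inhibitor of JAK signaling, fell with IWR-1 by 1.48 (adjusted p = 2.8e-05) and with XAV939 by 0.51 (adjusted p = 0.0323). Irf3, the factor downstream of the sensors, did not pass in any of the comparisons with a control (adjusted p from 0.299 to 0.815).

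Of 15 tested genes of nucleic acid sensing, IWR-1 lowered 6 (40%, against 20.2% of all genes) and raised none. Sting1, the adaptor of DNA sensing, read 24.9, 29.5 and 20.5 CPM in DMSO and 7.88, 8.60 and 8.90 with IWR-1 (-1.55, SE 0.14, adjusted p = 1.6e-05). Ddx58 (RIG-I), a sensor of short RNA, fell by 0.28 (adjusted p = 0.0435). XAV939 raised 2, Myd88 and Ikbke, a kinase of interferon induction (0.49, adjusted p = 0.00585), and lowered 2, with Ticam1 first (-0.61, adjusted p = 0.0027), while knockdown raised Traf3 (0.28, adjusted p = 0.0223) and, with the replicate block alone, lowered 2.

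Of 53 further interferon-stimulated genes, 42 were tested in the inhibitor set, where IWR-1 raised 3 (7.14%, against 16.2% of all genes) and lowered 13 (31%, against 20.2%; median -0.24). XAV939 raised 6 (14.3%, against 7.57%) and lowered 2 (4.76%, against 9.85%; median 0.25). Among the 40 tested in the siRNA set, knockdown raised Ifi30, a lysosomal thiol reductase of antigen processing (0.95, SE 0.07, adjusted p = 0.00274), and lowered Oas1c (-1.06, SE 0.28, adjusted p = 0.0421). The replicate block changed these counts to 6 raised and 11 lowered of 40 with knockdown and to 14 raised and 3 lowered of 42 with XAV939, where 16% and 17.4% of all genes were called higher and lower. The chemokine Ccl5 read 19.4, 14.7 and 9.18 CPM in DMSO, 8.11, 9.01 and 4.10 with XAV939 and 0.698, 0.610 and 0.580 with IWR-1, the largest fall of that list (-4.39, SE 0.37, adjusted p = 1.26e-05). Cxcl10 fell with XAV939 from 9.03, 8.06 and 8.67 CPM to 1.94, 1.80 and 2.04 (-2.12, SE 0.18, adjusted p = 7.68e-05), and with IWR-1 by 1.54 (adjusted p = 7.98e-05). Uba7, the activating enzyme of ISG15, rose with XAV939 (1.0, SE 0.19, adjusted p = 0.00515).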

How the data were processed

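Polyadenylated RNA of 15 chondrocyte libraries was sequenced with a stranded kit. According to the submitters' processing notes and the study's methods, reads were trimmed (Trimmomatic 0.32), aligned to mm10 (TopHat2 2.0.13) and counted per gene (HTSeq 0.6.1p1). The counting annotation and strand setting were not given in the sources used here. The authors deposited raw counts per gene in 2 tables, 1 for the siRNA set and 1 for the inhibitor set, with Entrez identifiers, of which 24058 of 24134 were matched to symbols. The members and lists were chosen with earlier results of these data known.

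Counts were tested with edgeR 4.0.16 (R 4.3.3, limma 3.58.1) by the quasi-likelihood F test, with filterByExpr, TMM factors and a prior count of 2, in each table alone. Adjusted p is Benjamini-Hochberg over all genes tested, called under 0.05. A log2 fold change is treated over control, its SE is its size divided by the root of F, and intervals are 95%. CPM used TMM-scaled library sizes within a set, the joint scaling of the control groups used all 15 libraries, and RPKM used GENCODE M21 exon lengths. Differences of effects were contrasts in 1 fit of all 15 libraries. The fits were tested on simulated data.

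Same-numbered libraries deviated from their group means together in the siRNA set. Correlations were 0.424 to 0.519 in 3 same-numbered pairs and -0.409 to 0.0972 in 6 pairs of different number. The pairing was weaker in the inhibitor set, where 0.143 to 0.553 in 9 same-numbered pairs overlapped -0.489 to 0.318 in 18 others. DMSO replicate 2 correlated more with replicate 1 of IWR-1 and XAV939 (0.316 and 0.318) than with their replicate 2 (0.244 and 0.143). A blocked fit has a term for the replicate number. It is given where it changed a call of the 42 genes within a set or moved another printed count by over 1.5 times. The labels do not say what a number shares. Alternatives were DESeq2 1.42.0, RLE and upper-quartile scaling, no filter, at least 10 counts in every library, only the groups compared, and leaving out libraries. No libraries agreed within sampling noise. P-values measure the spread between these libraries.

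Within each role the rule named the gene of highest mean CPM and that of smallest adjusted p in each comparison with a control, and, among pathway genes, the called gene of smallest adjusted p in each direction. Every other gene with values, including the remaining called members, Jak2 with IWR-1, Ifnar1, Irf1, Irf3, Ddx58 and Ifit3b, was named after its values were seen. Some list genes are not reported here.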

Additional observations from a re-analysis of the deposited data

Results flagged for a closer look

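In 5 cases the effect of knockdown differed from that of an inhibitor in a test of the difference itself, over all 15 libraries (edgeR quasi-likelihood, Benjamini-Hochberg over all genes tested). Differences are knockdown minus inhibitor, in log2 units. Against XAV939, Gbp2 differed by -1.13 (SE 0.34, adjusted p = 0.0436), and this call was lost in 12 of 18 alternative fits. Against XAV939, Tap1 differed by -0.66 (SE 0.17, adjusted p = 0.0199), which became an adjusted p of 0.0524 without siCtrl replicate 3. Against IWR-1, Ifitm1 differed by 1.66 (SE 0.50, adjusted p = 0.0250), but with 4 to 10 counts in each siRNA library it failed the filter there, so this difference rests on the inhibitor libraries and on a knockdown change that could hardly be measured. Its call was lost in 5 of 18 fits, including those without siCtrl replicate 2, siCtrl replicate 3, siTnks/2 replicate 2, siTnks/2 replicate 3 or DMSO replicate 1. Against IWR-1, Ifitm2 differed by 0.98 (SE 0.23, adjusted p = 0.00574) and Ifi44 by -2.38 (SE 0.55, adjusted p = 0.00583), and both passed in all 18 fits run. Set, culture and mode of tankyrase loss cannot be told apart in these differences.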

How the results depend on the processing

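The counts of called genes changed with the replicate block, the pairing of same-numbered libraries, and with leaving out libraries. With the block, the knockdown count went from 1 to 9 and the XAV939 count from 6 to 11, while IWR-1 went from 15 to 19 and IWR-1 against XAV939 from 16 to 21. Differences of effects went from 2 to 11 against XAV939 and from 3 to 11 against IWR-1. DESeq2 gave 4 differences against XAV939. Leaving out 1 library at a time gave 1 to 1 called genes for knockdown, 4 to 6 for XAV939, 10 to 16 for IWR-1 and 10 to 17 between the inhibitors, with 1 to 4 differences of effects against XAV939 and 2 to 6 against IWR-1, 6 being the count without siCtrl replicate 3.

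Alternatives chosen after seeing the data left out every library of 1 replicate number. Called genes then numbered 0 to 2 for knockdown, 1 to 4 for XAV939, 7 to 14 for IWR-1 and 3 to 13 between the inhibitors (8 without replicate 2), with the fewest without replicate 1 for each inhibitor comparison and without replicate 1 or 3 for knockdown. With the replicate block as well, the knockdown count was 5, 21 and 3 without replicate 1, 2 and 3. Leaving out siCtrl replicate 3 turned the knockdown median of the list from -0.34 to 0.13 and Irgm1 from -0.39 to 0.032 (edgeR adjusted p = 0.951), where the lowest values on leaving out 1 library were -0.61 (without siCtrl replicate 2) and -0.65 (without siTnks/2 replicate 3). Calls with IWR-1 that held in all 19 settings were those of Cmpk2, Dhx58, Ifi44, Ifit3, Ifitm1, Ifitm2 and Ifitm3, and with XAV939 that of Ifit3. Mx2 was not tested with at least 10 counts in every library. Only 11 settings gave Mx2 a result, and its call was lost in 2 of them. RLE and upper-quartile scaling, no filter and DESeq2 kept the called counts for each treatment within 1.5 times. With 3 libraries a group, genes under about 1 CPM had wide intervals. The cause of these changes was not tested.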
